A study of Arabidopsis thaliana with 12 samples.

Results

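The well-translated short coding genes of Arabidopsis are nuclear genes whose coding sequence is over 120 and at most 240 nucleotides long and to which at least 1000 ribosome footprints were assigned. Among 27445 nuclear genes in the tables, 1124 fall in this length range, and 196 of these (17.4%) reach 1000 footprints. The footprint count chose these genes, so their footprints and every ratio that contains them are given as a description, without a test. The data are from Ribo-seq, which sequences the RNA fragments that ribosomes protect from nuclease, and from RNA-seq of rRNA-depleted RNA, with 6 libraries of each assay. All libraries came from wild-type Col-0 seedlings, 7 days old, grown in liquid Murashige and Skoog medium with sucrose. Every seedling had received the solvent DMSO at 0.1% of the medium as a mock treatment, and harvest followed 20 or 60 min later. No source used here ties a library to its harvest time. Titles and source names of the Ribo-seq samples read seedlings while their descriptions read root, and transcripts of green tissue were abundant in both tables: RBCS1A, a small subunit of RuBisCO, had the highest TPM (abundance scaled to the effective length of the gene and to the library) of all nuclear genes in each, 9676 in Ribo-seq and 7470 in RNA-seq.

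The deposited tables hold 1 pooled value per gene and assay, so no spread between replicates can be given, and the intervals below are 95% intervals that cover counting error only. PCR copies are not independent molecules, which those intervals do not take into account. The expected counts add up to 299584069 footprints and 51390094 RNA-seq counts. Counts of 1000 or more footprints were found for 56.5% of all nuclear genes, so the proportion among the short genes, 17.4%, was lower. A fixed count makes no allowance for length. The median coding length was 1029 nucleotides over all nuclear genes and 201 over the short genes below the threshold. What part length had in the lower proportion was not tested. Together the 196 genes took 2257137 footprints (0.782% of those on nuclear genes) and 83139 RNA-seq counts (0.228%).

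A coding sequence of this length holds the information for a protein well under the size of a typical folded domain. Proteins of this size include the smallest subunits of the cytosolic ribosome, single-helix subunits of the respiratory complexes and of translocation channels, the cysteine-rich metallothioneins that bind copper and zinc, and the precursors of secreted peptides, which are cut to their active form after translation. Few sequencing fragments fit inside so short a frame, so its measured level depends on how length is taken into account.

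Several of these genes share stretches with other coding sequences, and a footprint of 28 nucleotides from a shared stretch cannot be assigned by its sequence alone. Coding sequences from the TAIR10.1 genome are therefore shown for the genes in which this matters most, in lower case, with every base that lies within a run of 28 bases also found in another annotated coding sequence in capitals. The first are the 3 type 1 metallothioneins, MT1A (chr1:2338904-2339321, minus strand), MT1B (chr5:22972049-22972441, minus strand) and MT1C (chr1:2341603-2341865, plus strand), each with 2 coding exons.
MT1A: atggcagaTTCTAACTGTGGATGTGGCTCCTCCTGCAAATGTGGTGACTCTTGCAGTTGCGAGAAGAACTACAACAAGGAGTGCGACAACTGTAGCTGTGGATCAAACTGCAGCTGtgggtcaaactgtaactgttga
MT1B: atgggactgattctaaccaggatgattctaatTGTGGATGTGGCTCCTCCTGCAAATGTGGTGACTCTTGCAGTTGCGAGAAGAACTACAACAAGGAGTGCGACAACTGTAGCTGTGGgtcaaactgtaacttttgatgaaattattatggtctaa
MT1C: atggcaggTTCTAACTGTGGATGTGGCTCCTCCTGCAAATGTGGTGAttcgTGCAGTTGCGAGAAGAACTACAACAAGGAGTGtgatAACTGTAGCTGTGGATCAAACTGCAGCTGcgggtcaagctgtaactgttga
MT1A and MT1B have an unbroken run of 86 bases in common, from base 16 to base 101 of MT1A and from base 33 to base 118 of MT1B. The start codon and first codons of MT1B lie outside that run. MT1A and MT1C are alike in 131 of 138 positions.

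The second set are the 3 genes of ribosomal protein S29, a zinc-binding protein of the small subunit: AT4G33865 (chr4:16233395-16234114, minus strand), AT3G44010 (chr3:15800175-15801132, minus strand) and AT3G43980 (chr3:15778555-15779235, minus strand), each with 3 coding exons. They are shown because they encode the same protein by different bases.
AT4G33865: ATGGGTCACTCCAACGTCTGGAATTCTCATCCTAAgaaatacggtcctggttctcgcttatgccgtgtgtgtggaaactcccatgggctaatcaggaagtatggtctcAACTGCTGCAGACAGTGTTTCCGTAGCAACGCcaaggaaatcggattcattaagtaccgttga
AT3G44010: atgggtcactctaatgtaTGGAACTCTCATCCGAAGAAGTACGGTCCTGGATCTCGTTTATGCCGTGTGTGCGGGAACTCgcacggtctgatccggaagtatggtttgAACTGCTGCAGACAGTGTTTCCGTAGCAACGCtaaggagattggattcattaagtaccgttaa
AT3G43980: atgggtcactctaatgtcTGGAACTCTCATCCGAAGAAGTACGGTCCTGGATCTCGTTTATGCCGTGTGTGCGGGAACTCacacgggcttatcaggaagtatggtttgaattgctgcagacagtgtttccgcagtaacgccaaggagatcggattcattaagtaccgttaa
AT3G44010 and AT3G43980, near each other on chromosome 3, are alike in 161 of 171 bases, and AT4G33865 is alike in 150 and 152 bases to these genes.

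The last pair stand at the low end of RNA-seq. AT3G42628, annotated as related to phosphoenolpyruvate carboxylase (chr3:14720735-14720872, minus strand, 1 exon), was the member with 0 RNA-seq counts, and RTFL17 (chr1:4525852-4525977, minus strand, 1 exon), of the ROTUNDIFOLIA-like family of small plant peptides that affect cell proliferation, was the shortest member and had 1.
AT3G42628: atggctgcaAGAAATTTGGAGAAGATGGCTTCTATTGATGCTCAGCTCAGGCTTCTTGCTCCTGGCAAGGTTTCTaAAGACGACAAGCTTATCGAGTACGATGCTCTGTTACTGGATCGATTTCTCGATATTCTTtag
RTFL17: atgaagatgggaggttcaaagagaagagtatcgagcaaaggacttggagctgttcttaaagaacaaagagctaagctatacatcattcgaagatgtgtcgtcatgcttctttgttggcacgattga
In AT3G42628, 125 of 138 bases are in capitals. Its longest run in common with PPC2, a gene for phosphoenolpyruvate carboxylase with a coding length of 2892 nucleotides and 128902 footprints, is 66 bases. RTFL17 shares no such run with another coding sequence.

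Across all 196 genes, 144 share no 28-mer with another coding sequence, 18 share over 20% of their 28-mers and 6 share over 50%. The 18 genes hold 14.1% of the members' footprints. Footprints shorter than 28 nucleotides, which the paper also used, or any placed with a mismatch can fit several genes beyond these shares. That was not counted.

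Relative to RNA-seq, the short genes had many more reads in Ribo-seq than other genes when reads were compared without effective lengths. With effective lengths the difference was far smaller. The log2 CPM ratio sets the share that a gene took of all footprints against its share of all RNA-seq counts, with 0.5 counts added to each. Its median was 2.28 over the 195 members with an RNA-seq count (quartiles 1.58 and 3.05), and 0.16 over 23670 nuclear genes. It was over 1, a 2-fold difference, in 179 of 195 members, against a background of 15.5% of nuclear genes with an RNA-seq count, and under -1 in 0 members, against 15.9%. Since the rule asks for many footprints, it favours high ratios. Nuclear genes of over 240 to 360 nucleotides chosen by the same 1000 footprints, 497 in number, had a median of 1.40, and all nuclear genes with 1000 footprints a median of 0.32.

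With TPM, in which each count is divided by the effective length of the gene, the difference was far smaller. The log2 TPM ratio, Ribo-seq over RNA-seq with 0.1 TPM added to each and for genes over 0.1 TPM in RNA-seq, had a median of 0.32 in 195 members (quartiles -0.40 and 0.93), 0.42 in the genes of over 240 to 360 nucleotides and 0.12 in all nuclear genes. It was over 1 in 46 members, 23.6%, against 8.44% of nuclear genes, and under -1 in 17 members, 8.72%, against 10.1%. Among all nuclear genes with 1000 footprints the median was 0.24, with 9.29% over 1 and 5.16% under -1. In the genes of over 240 to 360 nucleotides 17.1% were over 1 and 2.44% under -1. Beside genes chosen by the same footprints, the members thus had larger shares in both tails. Both tails are read only as descriptions, since the same rule bears on them.

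The effective length accounts arithmetically for the gap between these ratios. It is the number of places where a sequenced fragment can start within the coding sequence, and it was the coding length less 27 nucleotides in Ribo-seq. In RNA-seq it was far shorter, 1.96 nucleotides for RTFL17 (126 nucleotides), 4.50 for MT1A and MT1C (138), 27.3 for the S30 genes (189) and 64.4 for PSK4 (240). One RNA-seq count was thus worth 7.66 TPM in RTFL17. In the 11 members of up to 160 nucleotides the median effective length in RNA-seq was 5.32 and the median log2 CPM ratio 3.82. In the 55 members of over 160 to 200 nucleotides these values were 25.5 and 2.53, and in the 130 members of over 200 nucleotides 50.1 and 2.05. Across 195 members, Spearman's rho with coding length was -0.39 for the log2 CPM ratio and 0.08 for the log2 TPM ratio. These genes share their libraries, and the effective length enters the second ratio directly.

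**Figure D1:**
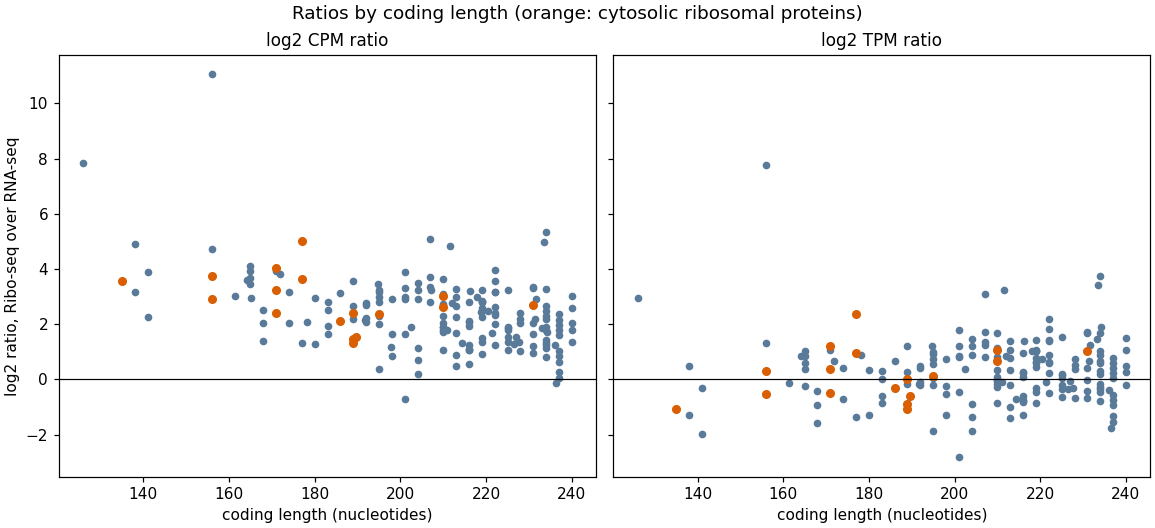
Ratio of Ribo-seq to RNA-seq on the log2 scale (vertical axes) against coding length in nucleotides (horizontal axes) for the 195 members with an RNA-seq count, as CPM on the left and TPM on the right, 1 point per gene and ribosomal protein genes in orange. The CPM ratios lie mostly above 0 and are highest among the shortest genes, while the TPM ratios lie on both sides of 0.

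RNA-seq counts, which the rule did not use, had a median of 164 in the members. At least 10 counts were found in 193 of 196 members (98.5%), in 98.6% of the genes of over 240 to 360 nucleotides with 1000 footprints, and in 91 of the 928 short genes below 1000 footprints (9.81%). The share was 74.6% over all nuclear genes and 99.7% over all nuclear genes with 1000 footprints. The members' share was thus near that of other genes chosen by the same footprints. Of those 928 genes, 675 had 0 RNA-seq counts and 495 had 0 footprints. Footprints and RNA-seq counts followed each other among the members, with a Spearman's rho of 0.78 over 195 genes that share both libraries. Just inside the threshold were AT3G13845 with 1034 footprints, AT1G22065 with 1040 and AT5G50560 with 1045. Just outside were AT3G01950 with 971, AT2G14247 with 968 and CLE2, a CLAVATA3/ESR-related signalling peptide, with 960.

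**Figure D2:**
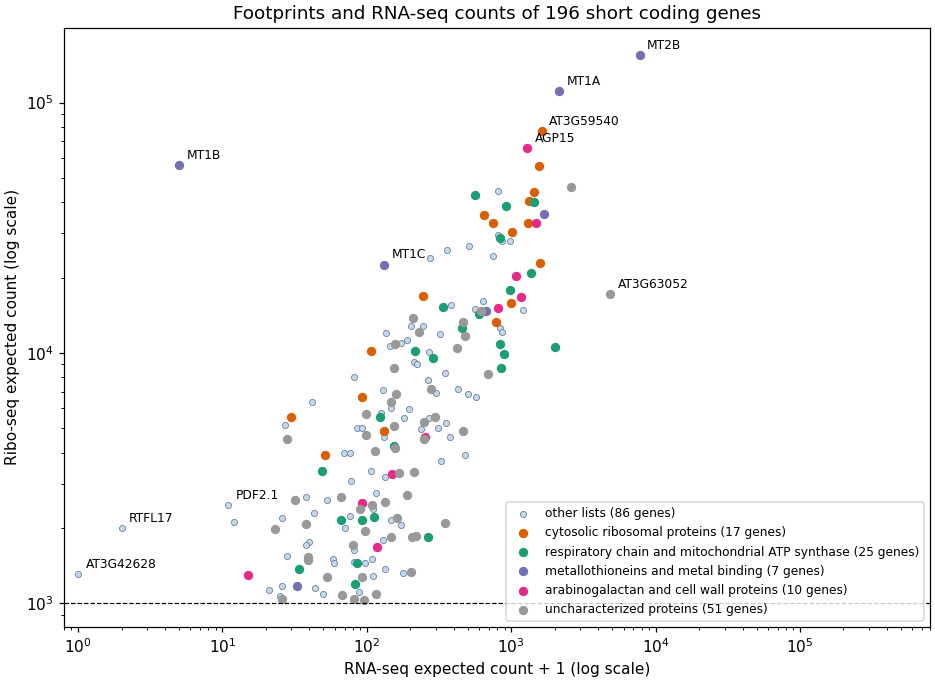
Ribo-seq expected counts (vertical, log scale) against RNA-seq expected counts plus 1 (horizontal, log scale) for the 196 members, 1 point per gene, coloured by list, with the threshold of 1000 footprints as a dashed line. MT2B lies at the top right, and MT1B, with 56119 footprints and 4 RNA-seq counts, stands apart to the left of all genes with a like number of footprints.

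By annotated product, the members comprised 25 genes of the respiratory chain and the mitochondrial ATP synthase, 17 of ribosomal proteins, 10 of arabinogalactan and cell wall proteins, 10 of small stress proteins, 9 of ubiquitin-like, proteasome and nuclear RNA proteins, 8 of protein import and translocation, 7 of metallothioneins and metal binding, 6 of signalling peptides, 5 of defensins and cysteine-rich proteins and 2 of plastid proteins. A further 51 are named as uncharacterized, and 46 carry some other name. The lists differed widely in how many of their short genes reached 1000 footprints. All 7 short genes of the metallothionein and metal list did, as did 17 of 19 ribosomal, 25 of 29 respiratory, 8 of 10 import and 10 of 13 cell wall genes. Only 6 of 39 signalling peptide genes, 5 of 97 defensin and cysteine-rich genes and 51 of 675 uncharacterized genes did.

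Metallothioneins headed the members. MT2B had 154856 footprints, the most of any member, with 7739 RNA-seq counts, also the most. Its TPM was 2209 in Ribo-seq and 1956 in RNA-seq, a log2 TPM ratio of 0.18, and its log2 CPM ratio was 1.78 (1.75 to 1.81). MT1A followed with 110964 footprints and 2145 RNA-seq counts. On so short an effective length its RNA-seq TPM came to 7167, the second highest of all nuclear genes, its Ribo-seq TPM to 2952 and its log2 TPM ratio to -1.28, whereas its log2 CPM ratio was 3.15 (3.09 to 3.21). For MT1A, therefore, the direction of the ratio depended on whether the effective length was taken into account.

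MT1B, which the annotation describes as inactive, had 56119 footprints and 4 RNA-seq counts (1.09 to 10.2). Its log2 CPM ratio of 11.06 (9.88 to 13.11) and log2 TPM ratio of 7.78 were the highest of all members. MT1C had 22543 footprints, 130 RNA-seq counts and a log2 CPM ratio of 4.89 (4.65 to 5.15). Between MT1A and MT1B, RNA-seq counts differed 536-fold, while the 3 type 1 genes spanned 4.92-fold in footprints. The 28-mers of MT1B that MT1A shares are 45.7% of its total. How footprints of the shared run were divided between the genes, and what part this had in the ratio of MT1B, was not tested. Summed over the 3 genes, which keeps footprints shared among them together, the log2 CPM ratio was 3.84 and the log2 TPM ratio -0.65.

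The other metal genes were MT3 (14654 footprints, 667 RNA-seq counts), the copper chaperone ATX1 (35910 and 1693) and CDT1, named for cadmium tolerance (1177 and 32). ATX1 has several coding isoforms, and its length was 233 nucleotides in the Ribo-seq table but 321 in RNA-seq, so its log2 TPM ratio of 1.47 compares unlike lengths. Its log2 CPM ratio was 1.86. Cysteine codons made up 28.9% of the codons in MT1A and MT1C and 18.2% in MT2B, against a median of 1.28% over the members. In MT1B they were 0.0%: the run of 86 bases in common with MT1A begins at another codon position there, so the annotated MT1B frame reads it differently and does not encode the cysteine-rich protein of MT1A.

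Ribosomal protein genes took 19.9% of the members' footprints and 16.4% of their RNA-seq counts. All 17 had a log2 CPM ratio over 1 (from 1.3 to 5.02, median 2.68), against 91.8% of all members. Their log2 TPM ratios ran from -1.08 to 2.35 around a median of 0.12, with 4 over 1 and 2 under -1. The same words pick any product name with ribosomal in it that names no organelle or organellar subunit. How many of the longer genes so picked encode cytosolic ribosomal proteins was not checked. Of these genes of over 240 nucleotides, 350 with an RNA-seq count had a median log2 CPM ratio of 0.89. The 345 over 0.1 TPM in RNA-seq had a median log2 TPM ratio of 0.57. The short genes of the list thus stood higher than the longer genes so picked on the first scale. On the second scale no order is given, since the short genes' median depended on which of them were taken. It was 0.12 over all 17 and 0.66 over the 5 with an RNA-seq effective length of at least 30 nucleotides. Lysine and arginine codons were a median of 26.2% of the codons of all 17, against 13.6% in all members. The share was highest in the L39 gene AT2G25210 at 36.4%.

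The proteins fall into families whose members are near duplicates. L38, of the large subunit, is encoded by AT3G59540 (76760 footprints, 1624 RNA-seq counts) and AT2G43460 (55833 and 1562), which encode the same protein. Their log2 CPM ratios were 3.02 (2.95 to 3.09) and 2.62 (2.54 to 2.69), intervals that do not overlap, and their log2 TPM ratios were 1.07 and 0.66. The S30 genes, whose protein product is also the same in all, were AT5G56670 with 43888 footprints and 1435 RNA-seq counts, AT4G29390 with 22803 and 1593, and AT2G19750 with 15818 and 988. AT4G29390 had the most RNA-seq counts of these but fewer footprints than AT5G56670, and its log2 CPM ratio of 1.3 (1.22 to 1.37) was below that of AT5G56670, 2.39 (2.32 to 2.47).

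Of the S29 genes shown above, AT4G33865 had 40528 footprints and 1328 RNA-seq counts, AT3G44010 35513 and 643, and AT3G43980 10167 and 105. Their log2 CPM ratios were 2.39, 3.24 and 4.05, so the gene with the fewest RNA-seq counts had the highest ratio. Of their 28-mers, 9.03% to 27.8% are shared with other coding sequences. The L39 genes, which encode a very small and basic protein near the exit tunnel of the ribosome, spanned more: AT4G31985 had 32929 footprints and 752 RNA-seq counts, AT2G25210 16809 and 242, and AT3G02190 3920 and 50. Their log2 CPM ratios of 2.91 (2.80 to 3.02), 3.57 (3.39 to 3.76) and 3.74 (3.35 to 4.18) ran against their RNA-seq counts, and the intervals of the latter pair overlap. The RNA-seq count is the denominator of this ratio, and not every family had this order. In L38 the gene with fewer RNA-seq counts had the lower ratio. The S30 gene with the fewest, AT2G19750, had a ratio of 1.46, below that of AT5G56670. AT4G31985 and AT2G25210 share a run of 59 bases.

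L29 is encoded by AT3G06700 (33063 footprints, 1297 RNA-seq counts) and AT3G06680 (13274 and 782). Here too the gene with fewer RNA-seq counts had the lower log2 CPM ratio, 1.54 against 2.13. S28 is encoded by RPS28 (30488 and 1018) and, by their annotation notes, which place them in the cytosolic small subunit, by AT5G03850 (44399 and 813) and AT3G10090 (12800 and 245). The product name of that last pair speaks only of nucleic acid binding, so the word list missed them. They encode the same protein, their log2 CPM ratios were 3.23 (3.13 to 3.33) and 3.16 (2.98 to 3.35), and neither shares a 28-mer with another gene. L33 (AT3G06320 with 6678 footprints and 91 RNA-seq counts, AT5G18790 with 5569 and 29) and L31 (AT5G55125, 4874 and 130) complete the list. They carry names that are also used for bacterial-type ribosomal proteins, and their annotation does not state the compartment.

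Ribosomal proteins are present in equal numbers in the assembled ribosome, so the sums per protein are of interest. Over the S28, S29, S30, L29, L38 and L39 families, 16 genes, the summed Ribo-seq TPM was lowest for L29 at 855 and highest for L38 at 2140, a range of 2.5-fold, while single genes of the L39 family alone differed 8.40-fold in footprints. The summed RNA-seq TPM of the 6 families spanned 2.20-fold. The summed log2 TPM ratio was -0.70 for L39 and 0.88 for L38, the shortest and the longest of the 6, and what part the effective length has in that difference was not tested.

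**Figure D3:**
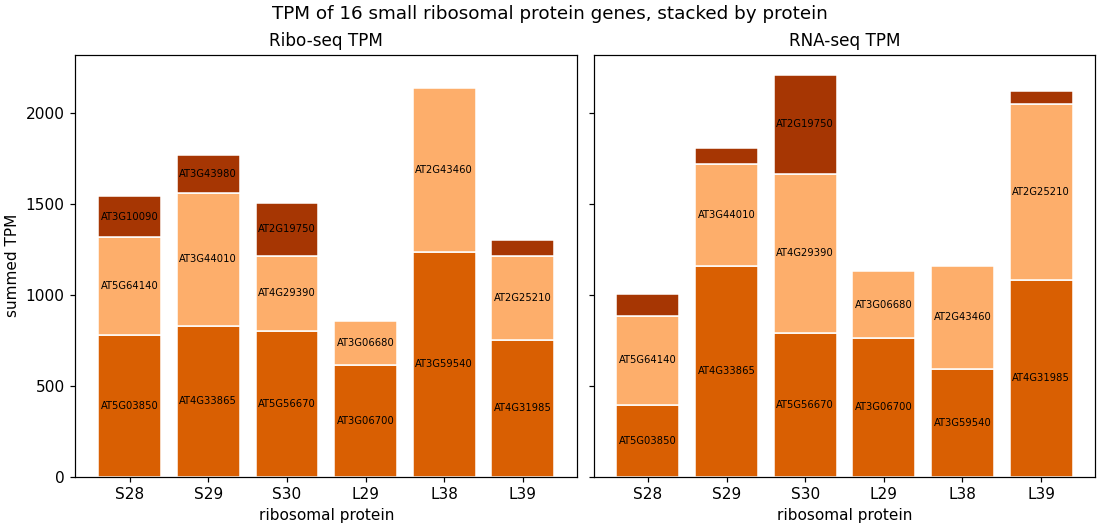
Summed TPM (vertical axes, linear from 0) of 6 small ribosomal proteins in Ribo-seq (left) and RNA-seq (right), each bar stacked from the 2 or 3 genes that encode the protein. L38 is highest in Ribo-seq at 2140, and S30 and L39 are highest in RNA-seq.

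Genes of the respiratory chain and mitochondrial ATP synthase, all nuclear genes whose products are imported into mitochondria, had a median of 9889 footprints and 335 RNA-seq counts. Their median log2 CPM ratio was 2.25, with 21 of 25 over 1 (84.0%, against 91.8% of all members). Their median log2 TPM ratio was -0.15, with 4 over 1 and 4 under -1. AT4G21105, a cytochrome c oxidase subunit of the terminal complex, had 42588 footprints on 559 RNA-seq counts and the highest ratios of the list (log2 CPM 3.71, log2 TPM 1.70). The ATP synthase epsilon chain AT1G51650 had 40100 and 1447, and QCR9-like AT3G52730 of complex III had 38587 and 917. Complex III was also represented by both subunit 8 genes, AT3G10860 (28876 and 832) and AT5G05370 (12535 and 453).

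At the other end of this list, AT1G14450, annotated as an NADH dehydrogenase subunit, had 10607 footprints on 2011 RNA-seq counts, a log2 CPM ratio of -0.14 (-0.21 to -0.07). The cytochrome c oxidase VIb gene AT5G57815 had 1835 on 265, a ratio of 0.25 (0.06 to 0.44). The other VIb gene, AT4G28060, had 8733 on 843. The ATP synthase genes AT5G59613 (20913 and 1361) and AT3G46430 (9577 and 284) differed 4.79-fold in RNA-seq counts and 2.18-fold in footprints. SDH8 of complex II, 141 nucleotides long, had 4254 footprints, 153 RNA-seq counts and a log2 TPM ratio of -1.97 beside a log2 CPM ratio of 2.25. Cox19-type and COX17 proteins, which are assembly factors and not subunits, are counted in this list as well.

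Import and translocation genes included the 3 genes for the gamma subunit of SEC61, the channel into the endoplasmic reticulum: AT5G50460 with 25806 footprints and 360 RNA-seq counts, AT4G24920 with 24335 and 748, and AT3G48570 with 2579 and 52. AT5G50460 and AT4G24920 encode the same protein and lay closer together in footprints than in RNA-seq counts. Of the mitochondrial outer membrane receptor complex, TOM6 had 12775 footprints and 202 RNA-seq counts, TOM5 8035 and 80, and TOM7-2 1113 and 87. All 8 genes had log2 CPM ratios over 1, from 1.01 to 4.1, against 91.8% of all members over 1.

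Arabinogalactan peptides, short hydroxyproline-rich proteins of the cell surface with a lipid anchor, were represented by 9 members, from AGP15 with 65578 footprints and 1294 RNA-seq counts to AGP13 with 1675 and 117. AGP15 had a log2 CPM ratio of 3.12 (3.04 to 3.20), and AGP12 (32997 and 1481), AGP24 (20234 and 1071) and AGP21 (16800 and 1169) had ratios of 1.93, 1.70 and 1.3. Among the 10 genes of the list the median log2 TPM ratio was -0.17. Lysine and arginine codons were a median of 3.31% of the codons, and 7 of the 10 have a single coding exon. AGP40, AGP41 and AGP23, of the same length class, had 67, 190 and 4 footprints.

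Small stress proteins were led by the neighbouring genes RCI2A (11969 footprints, 135 RNA-seq counts) and RCI2B (10651 and 144), which encode small hydrophobic membrane proteins induced by cold. Their log2 CPM ratios of 3.92 (3.68 to 4.18) and 3.66 (3.43 to 3.91) had overlapping intervals. KIN1 and KIN2, cold-inducible genes that share 35.6% of their 28-mers, had 1707 and 2183 footprints.

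Secreted cysteine-rich members were few. LCR68 had 29475 footprints and 812 RNA-seq counts, LCR69 27920 and 855, and the nearby gene PDF2.1, a plant defensin, 2464 and 10. PDF2.1 had the highest log2 CPM ratio of members with at least 10 RNA-seq counts, 5.33 (4.52 to 6.46). Of signalling peptides, PSK4, a precursor of the growth-promoting sulfated peptide phytosulfokine, had 8344 footprints and 349 RNA-seq counts, PSK5 1147 and 43, and RGF9, a root meristem growth factor, 2156 and 146. RTFL17 had 1999 footprints on 1 RNA-seq count (0.0253 to 5.57), which leaves its log2 CPM ratio between 5.94 and 13.73.

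In the list of ubiquitin-like, proteasome and nuclear RNA proteins, UBL5 (26697 and 510) and SNRNP-G of the spliceosome (12157 and 856) were well covered. So were NOP10 of the RNA-modifying nucleolar particles (10935 and 171) and the shared RNA polymerase subunits NRPB10 (9054 and 223) and NRPB12 (6386 and 41). An annotated small nucleolar RNA lies within the coding span of NRPB12 on the same strand. The plastid list held only OEP6 (14884 and 1207) and OEP7 (1324 and 176), both of the outer envelope, with log2 CPM ratios of 1.08 (1.00 to 1.17) and 0.36 (0.14 to 0.60).

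**Figure D4:**
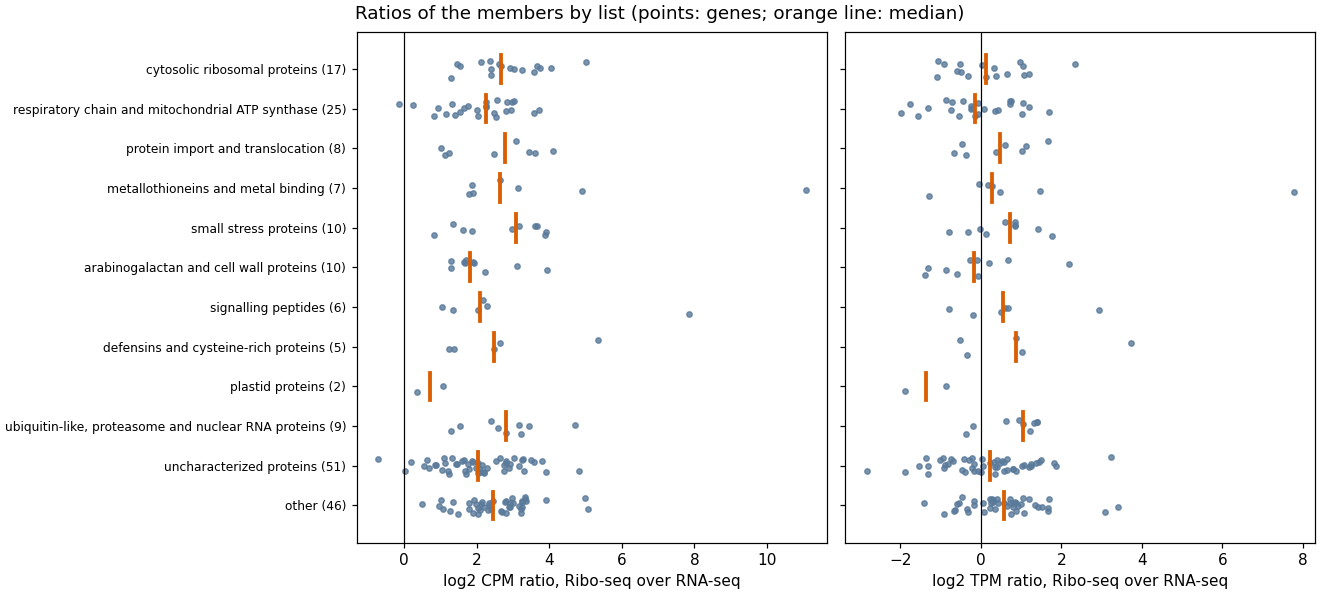
Log2 ratio of Ribo-seq to RNA-seq (horizontal axes) for the members of each list, as CPM on the left and TPM on the right, with 1 point per gene and the median of the list as an orange line. Median CPM ratios lie above 0 in every list, and median TPM ratios lie on both sides of 0.

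Of the genes without a named function, AT2G23090, of the SERF family of small basic proteins, had 45838 footprints and 2586 RNA-seq counts. The other SERF genes, AT3G24100 and AT4G13615, had 13239 and 8271 footprints. AT3G63052 had the lowest ratios of all members on both scales: 17229 footprints on 4838 RNA-seq counts, the second most of the members, gave a log2 CPM ratio of -0.71 (-0.76 to -0.66) and a log2 TPM ratio of -2.83. Low ratios were also found for AT5G44585 at 0.04 (-0.13 to 0.21) and AT4G33960 at 0.18 (-0.03 to 0.41), whose intervals include 0. TMA7-like AT1G15270, of a family that in yeast is associated with the translation machinery, had 27887 footprints and 972 RNA-seq counts. AT3G07568, which bears the product name fanconi anemia group D2 protein, had 5175 and 26, and a log2 CPM ratio of 5.07 (4.54 to 5.71). Its annotation note, in contrast, calls the protein unknown.

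Members that repeat part of a longer gene need separate mention. PDX1L4 shares 93.9% of its 28-mers with PDX1.1, a vitamin B6 synthesis gene of 930 nucleotides with 42373 footprints, and itself had 5490 footprints and 270 RNA-seq counts. AT2G48121 shares 61.2% with AT4G37510 (37849 footprints), a ribonuclease III family gene, and had 2119 and 11, for a log2 CPM ratio of 4.98 (4.20 to 6.05). For AT3G42628, with 1307 footprints and 0 RNA-seq counts, the footprint share was at least 74.7-fold higher than the RNA-seq share when the floor of 3 counts stands for 0. The exact interval of its 0 counts reaches 3.69, above that floor, so the bound holds for the floor alone. AT5G50560 and AT5G50660 have identical coding sequences and had 1045 and 1087 footprints and 81 and 115 RNA-seq counts, values that cannot be told apart by sequence. The 17 members that share over 20% of their 28-mers and have an RNA-seq count had a median log2 CPM ratio of 3.24, and the 178 others 2.21. The part of shared sequence in that difference was not tested.

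Features of the annotated genes that the rule did not use are given for the same groups. Position -3, counted back from the start codon, was A in 122 of 193 members with an annotated leader of that length (63.2%), in 43.8% of 514 short genes with fewer footprints, in 55.2% of 487 genes of over 240 to 360 nucleotides with 1000 footprints, and in 48.2% of 23190 nuclear genes. A or G stood there in 87.6%, 70.0%, 80.3% and 72.7%. Of the 928 short genes with fewer footprints, 406 have no annotated leader, against 3 of 196 members. A single coding exon was annotated in 31.6% of members and 55.7% of the short genes with fewer footprints. In the genes of over 240 to 360 nucleotides with 1000 footprints it was 30.2%, near the members, and in all nuclear genes 23.2%. The median GC content of the coding sequence was 47.1% in members, 42.8% in short genes with fewer footprints, 46.3% in the longer group and 44.0% in all nuclear genes. Stop codons were TGA in 94, TAA in 67 and TAG in 35 members, or 48.0%, 34.2% and 17.9%. The shares over nuclear genes were near these, at 42.8%, 36.6% and 20.5%. Another annotated gene overlaps 79 of the 196 members, on the same strand in 21. The share of all nuclear genes with such an overlap was not computed, so these counts are not read as a trait of the members.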

How the data were processed

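Arabidopsis Col-0 seedlings were profiled by Ribo-seq and RNA-seq, 6 libraries each. Footprints were cut from gels at 28 to 30 nt, and RNA over 200 nt was used for RNA-seq. The submitters' processing notes list RSEM 1.3.1, STAR and Bowtie2 2.3.4.1. For each assay the authors deposited a single RSEM output with unnormalized expected counts, and with TPM and FPKM, which RSEM scales over the effective length. How the libraries were combined is not stated there or in the paper. Of the whole-number lengths, 99.6% are multiples of 3 and hence coding lengths. For 135 members with 1 transcript, all 135 lengths equal that of TAIR10.1, from which names, positions and sequences were read, and the coding lengths of the other 61 lie within those of their transcripts. Expected counts were used as deposited, and 75 genes in Ribo-seq and 20 in RNA-seq had fractional values.

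The log2 CPM ratio used totals over all genes and a pseudocount of 0.5 counts. The log2 TPM ratio used a pseudocount of 0.1 TPM and an RNA-seq filter of over 0.1 TPM, and a FPKM ratio served as an alternative. Intervals are exact Poisson intervals for counts and exact Clopper-Pearson intervals for the ratio of a pair of counts, at 95%, and were checked on simulated counts. The floor for a count of 0 was 3 counts. With 1 pooled value per assay, no test was made. Shared sequence was the share of 28-mers of the first transcript found in the coding sequence of another gene.

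Members and lists were chosen with earlier results of these data known. Lists follow words in the annotated product. The words for SDH8, proline-rich, cadmium, stress tolerance, RGF9, patterning factor, RNA polymerase and TFIIH products were not in the first plan. They were applied to every short gene, member or not. GIP2 alone was placed by hand, from its product. Genes named are the 25 with the most footprints, every ribosomal member, the 5 highest and 5 lowest log2 CPM ratios among members with at least 10 RNA-seq counts, those with 0 RNA-seq counts, 3 on each side of the threshold and 2 of each other list. Further genes were named after their values were seen, where a family, a pair or a shared sequence called for it. The software was pandas 2.3.3, numpy 2.4.6, Biopython 1.88, scipy 1.17.1 and matplotlib 3.10.9 under Python 3.11.15.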

Additional observations from a re-analysis of the deposited data

How the results depend on the processing

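No paired analysis was possible because the tables hold 1 pooled value per gene and assay. Totals over nuclear genes alone shifted every log2 CPM ratio by -0.44, to a median of 1.84 in members and 2.24 in ribosomal members, and, among the 57 genes of the naming rule with a ratio, turned the sign of AT5G44585 (-0.40), AT4G33960 (-0.25), AT5G57815 (-0.19) and OEP7 (-0.07). The median log2 TPM ratio of ribosomal members, 0.12, was -0.07 with FPKM and, in an alternative chosen after seeing the data, -0.15 without L31 and L33. With FPKM the median of all members went from 0.32 to 0.12. Members numbered 34 up to 180 nucleotides and 391 up to 300 and 151 at 2000 footprints. The percentage of member footprints on ribosomal genes, 19.9, was 19.6 at 500 footprints, 20.5 at 2000, 17.6 without genes sharing over 20% of 28-mers and, in alternatives chosen after seeing the data, 22.4 with the S28 pair and 19.1 without L31 and L33. By the length in the RNA-seq table, also added later, 195 genes qualified, 194 of them members. With a pseudocount of 1 TPM, the 57 genes taken by the naming rule that have a ratio moved by less than their counting error. Genes named outside the rule were not rerun. Few RNA-seq counts and effective lengths of a few nucleotides limit the shortest genes most.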
